A study of Mus musculus with 12 samples.

Results

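Regions bound by BMAL1 that hold 2 or more canonical E-boxes, the palindrome CACGTG, were examined in control and senescent mouse fibroblasts. Peaks of 6 BMAL1-ChIP-seq libraries were merged where they overlapped by 1 bp or more, and the members were chosen by their peak calls and their sequence. A member had to be called in 2 or more libraries, hold 2 or more E-boxes between its start and end, and hold no AP-1 site of the TRE type (TGACTCA or TGAGTCA, either strand). Of 7452 regions called in 2 or more libraries, 440 met the rule and are called multi-E-box regions here. Regions with exactly 1 E-box and no AP-1 site (single-E-box regions, 1579) were the most like set, 3773 regions held neither motif and 1660 held an AP-1 site.

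The cells were MAFs, fibroblasts grown from ear tissue of female adult C57BL6/J animals. Control MAFs were sham irradiated, and senescent MAFs received 20 Gy of X-rays and were kept in culture before use. All libraries of both groups came from cells treated with 100 nM dexamethasone for 2 h, a glucocorticoid that sets the clocks of cultured cells to the same phase, and collected 12 h afterwards. Each group had 3 libraries, and the sources do not say whether replicates came from separate animals or cultures, so p-values measure only the spread between these libraries. Peak lists carry no reads, so depth is unknown and a region missing from a list was not called, which is not the same as unbound. The lists of control replicates 1, 2 and 3 held 2794, 3349 and 10601 peaks, and those of senescent replicates 1, 2 and 3 held 4220, 9805 and 5053 peaks. For each library the peaks were ranked by score, with rank 1 the best.

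BMAL1 pairs with CLOCK, and the dimer binds E-boxes to drive the rhythmic transcription of its own repressors and of clock output genes. E-boxes in clock promoters often come in clusters, and a pair with a short fixed spacer, called a tandem E-box, is known from Period and other clock genes as a site at which dimers can sit side by side. Other basic helix-loop-helix leucine zipper factors, such as MYC with MAX, the USF pair and the TFEB family, recognise the same hexamer.

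Sequences of a few members are shown first because the spacing and the number of E-boxes define these regions. They were read from GRCm38 (mm10) on the plus strand, 5′ to 3′, and capitals mark the E-boxes. The first group shows tandem pairs, with 6 or 7 bp between the hexamers, of regions that all 6 libraries called: Lsm3 (chr6:91599170-91599203), Gm42791 (chr5:148995215-148995249), Hlf (chr11:90418184-90418217), Klhl29 (chr12:5213783-5213816), Kifc3 (chr8:95166042-95166075) and Tulp4 (chr17:6106776-6106810).
Lsm3: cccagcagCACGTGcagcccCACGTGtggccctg
Gm42791: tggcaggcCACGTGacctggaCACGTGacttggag
Hlf: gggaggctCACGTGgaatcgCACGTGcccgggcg
Klhl29: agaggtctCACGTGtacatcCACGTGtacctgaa
Kifc3: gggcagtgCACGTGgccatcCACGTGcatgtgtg
Tulp4: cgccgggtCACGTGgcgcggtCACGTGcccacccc
Regions were named after the protein-coding gene with the nearest start site, which need not be the gene they act on. The E-boxes of the pair at Gm42791 lay 78 and 91 bp upstream of the start site and those at Tulp4 105 and 92 bp upstream, whereas those at Lsm3, Hlf, Klhl29 and Kifc3 lay more than 10000 bp from one.

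The next group shows pairs with wider spacers at clock and clock output genes: 8 bp at Ciart (chr3:95882259-95882294), 39 and 97 bp at Nr1d2 (chr14:18238517-18238686), 107 bp at Dbp (chr7:45707704-45707838), and 100 bp at Klf9 (chr19:23135754-23135881).
Ciart: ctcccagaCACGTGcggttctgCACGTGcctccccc
Nr1d2: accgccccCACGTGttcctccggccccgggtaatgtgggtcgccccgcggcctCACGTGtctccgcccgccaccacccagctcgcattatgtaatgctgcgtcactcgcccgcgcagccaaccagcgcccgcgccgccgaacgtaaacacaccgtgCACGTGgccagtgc
Dbp: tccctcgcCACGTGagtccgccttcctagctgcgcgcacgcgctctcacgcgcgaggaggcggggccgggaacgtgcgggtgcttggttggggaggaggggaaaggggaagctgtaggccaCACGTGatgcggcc
Klf9: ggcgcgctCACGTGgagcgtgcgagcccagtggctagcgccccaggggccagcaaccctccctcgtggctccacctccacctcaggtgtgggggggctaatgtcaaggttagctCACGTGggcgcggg
The pair at Dbp lay 1435 and 1548 bp from the centre of the best peak of its region. The E-boxes shown at Ciart, Nr1d2 and Klf9 lay between 27 and 119 bp from theirs. The third group shows regions dense in E-boxes. Lamp1 (chr8:13159092-13159159) held 4 E-boxes just upstream of its start site and 2 more downstream, Efna3 (chr3:89320634-89320778) held 5 in an intron, and Ncl (chr1:86358619-86358843) held 5 in an intron. A tandem array in an intron nearest to Ndufaf8 (chr11:120114453-120114744 shown) held 18 in all, 13 of them in this stretch.
Lamp1: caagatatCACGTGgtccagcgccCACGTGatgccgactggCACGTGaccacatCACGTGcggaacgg
Efna3: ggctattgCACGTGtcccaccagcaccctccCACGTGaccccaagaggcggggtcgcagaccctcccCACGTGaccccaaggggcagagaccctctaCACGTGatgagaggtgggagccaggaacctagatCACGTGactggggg
Ncl: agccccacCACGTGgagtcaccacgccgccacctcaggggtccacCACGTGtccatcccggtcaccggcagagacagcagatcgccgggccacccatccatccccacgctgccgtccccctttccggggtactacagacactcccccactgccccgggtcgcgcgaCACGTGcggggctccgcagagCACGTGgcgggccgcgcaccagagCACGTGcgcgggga
Ndufaf8: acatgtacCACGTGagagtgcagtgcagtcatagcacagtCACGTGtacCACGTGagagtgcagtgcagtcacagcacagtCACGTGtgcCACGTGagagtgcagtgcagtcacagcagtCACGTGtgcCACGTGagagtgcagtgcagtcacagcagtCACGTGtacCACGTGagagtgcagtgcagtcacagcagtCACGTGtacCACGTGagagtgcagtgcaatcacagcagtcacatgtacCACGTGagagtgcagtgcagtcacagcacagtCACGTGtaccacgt

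Calls of the multi-E-box regions leaned towards the senescent libraries. Control replicates 1, 2 and 3 called 241, 237 and 332 of the 440 members, and senescent replicates 1, 2 and 3 called 392, 423 and 395, so every senescent library called more members than any control library. Control replicate 3, with the longest of all lists, still called fewer than senescent replicate 1 with its shorter list. All 6 libraries called 193 members (43.9%), against 14.8% of all 7452 regions. More senescent than control libraries called 220 members (50%), against 43.5% of all regions, and more control than senescent libraries called 13 (2.95%), against 20.9%. Senescent-only regions, called in 2 or more senescent and no control libraries, numbered 96 (21.8%, of which 50 were called in all 3), close to the 21.3% among all regions. That count rested on single libraries, being 162 without control replicate 3 and 53 without senescent replicate 2. Control-only regions, the converse, numbered 6 (1.36%), against 13.2% of all regions. Single-E-box regions leaned the same way, with 55.9% called in more senescent and 11.9% in more control libraries. Of these regions 27.9% were senescent-only and 5.95% control-only, so the senescent-only share was no higher in members. These counts use the calls by which members were chosen, so they are a description with no test.

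**Figure D1:**
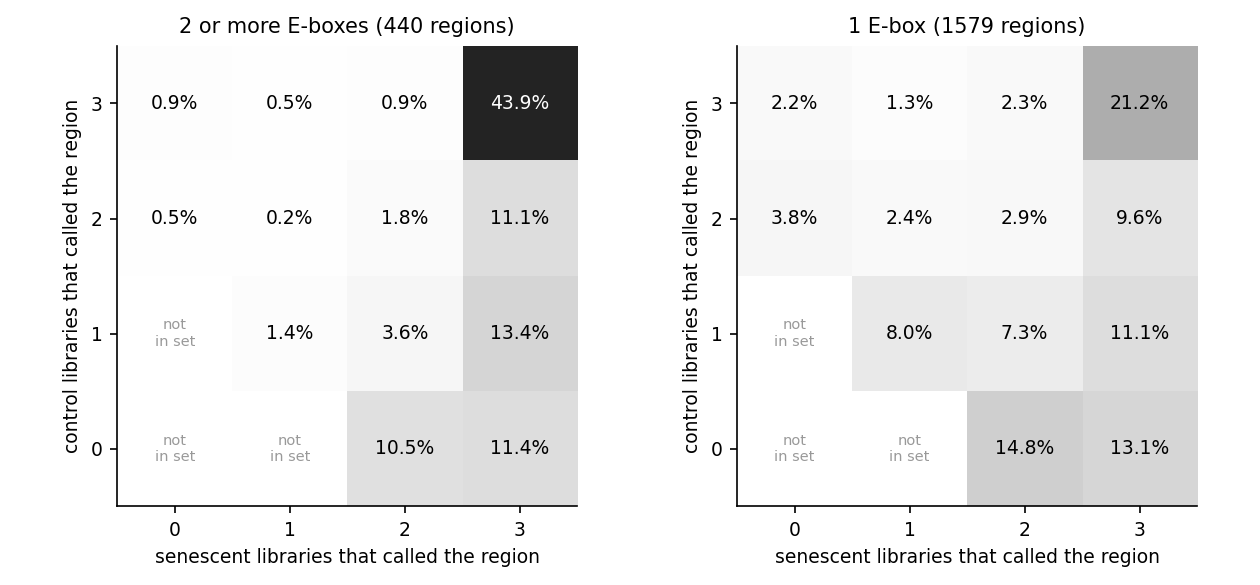
Percent of multi-E-box regions (left) and single-E-box regions (right) by the number of senescent libraries (x axis) and control libraries (y axis) that called them, with the number in each cell. Both sets hold most in the corner called by all 6 libraries (43.9% and 21.2%) and more in the lower row, without control calls, than in the left column, without senescent calls.

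Members were wide regions, and width moved with both the number of E-boxes and the calls. The median width was 603.5 bp (quartiles 401.75 and 872) for multi-E-box regions, 394 bp for single-E-box regions and 353 bp for all regions. Among regions of at most 400 bp, 2.75% of multi-E-box and 3.08% of single-E-box regions were called in all 6 libraries. The shares were 37.5% and 35.4% among regions of over 400 and up to 800 bp, and 84.9% and 66.7% among wider ones. In regions of at most 400 bp, senescent-only calls made up 58.7% of multi-E-box and 43.8% of single-E-box regions, and control-only calls made up 3.67% and 7.76%. In regions of over 400 and up to 800 bp the senescent-only shares were 15.6% and 12.9%, and the control-only shares were 1.04% and 4.19%. Above 800 bp the senescent-only shares were 1.44% and 1.63%, and the control-only shares were 0% of 139 multi-E-box regions and 3.25% of single-E-box regions. The part of width in the calls was not tested otherwise, since merging makes a region wider the more libraries call it.

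To compare groups with values that the rule did not use, regions were rebuilt for each library from the other 5 only, and the share of these held-out regions that the left-out library called was taken. Control replicates 1, 2 and 3 called 54.6%, 53.5% and 74.9% of 438, 437 and 430 held-out multi-E-box regions. Senescent replicates 1, 2 and 3 called 88.2%, 95.6% and 88.9% of 407, 385 and 406. Wilson intervals (95%, counting error only) ran from 48.9% to 58.2% for the lowest of these shares, control replicate 2, and from 93.0% to 97.2% for the highest. The groups did not overlap. Control libraries called 61.0% ± 12.0 on average and senescent libraries 90.9% ± 4.07 (SD over n = 3 each), which is 29.9 percentage points more (exact permutation over the 20 arrangements, two-sided, p = 0.1, and 0.133 after adjustment over 4 tests). With 3 against 3 libraries no p below 0.1 is possible. Among all held-out regions the shares were 29.5%, 34.1% and 66.6% in control and 47.2%, 73.0% and 52.1% in senescent replicates 1, 2 and 3, 14.0 points more on average in senescent libraries, with overlap. Held-out sets of different libraries share most of their peaks, and each set was rebuilt with 2 libraries of the left-out group and 3 of the other.

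Held-out multi-E-box regions were called more often than held-out single-E-box regions in 6 of 6 libraries. The shares of single-E-box regions were 36.7%, 36.6% and 64.4% in control and 67.7%, 85.6% and 69.6% in senescent replicates 1, 2 and 3. The paired difference was 15.8 ± 4.51 percentage points (SD, n = 6, range 9.95 to 20.5; exact two-sided sign-flip permutation test, p = 0.031, the smallest possible, adjusted p = 0.0625), so it did not pass the correction. Single-E-box regions had a group difference of 28.4 points, close to that of multi-E-box regions, and the contrast of the sets differed between groups by 1.47 points (exact permutation test, p = 0.6, n = 3 per group). In regions of at most 400 bp the paired difference was 2.16 ± 8.34 points (SD, n = 6; exact sign-flip permutation test, p = 0.5625), and in regions of over 400 and up to 800 bp it was 3.6 ± 7.13 points (SD, n = 6; exact sign-flip permutation test, p = 0.3125). Among regions of over 400 and up to 800 bp, control replicates 1, 2 and 3 called 50.5%, 49.7% and 81.6% of multi-E-box and 54.1%, 53.9% and 81.6% of single-E-box regions. Senescent replicates 1, 2 and 3 called 93.3%, 98.2% and 93.4% of multi-E-box and 81.9%, 91.4% and 82.2% of single-E-box regions. The width classes were added after the data were seen.

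**Figure D2:**
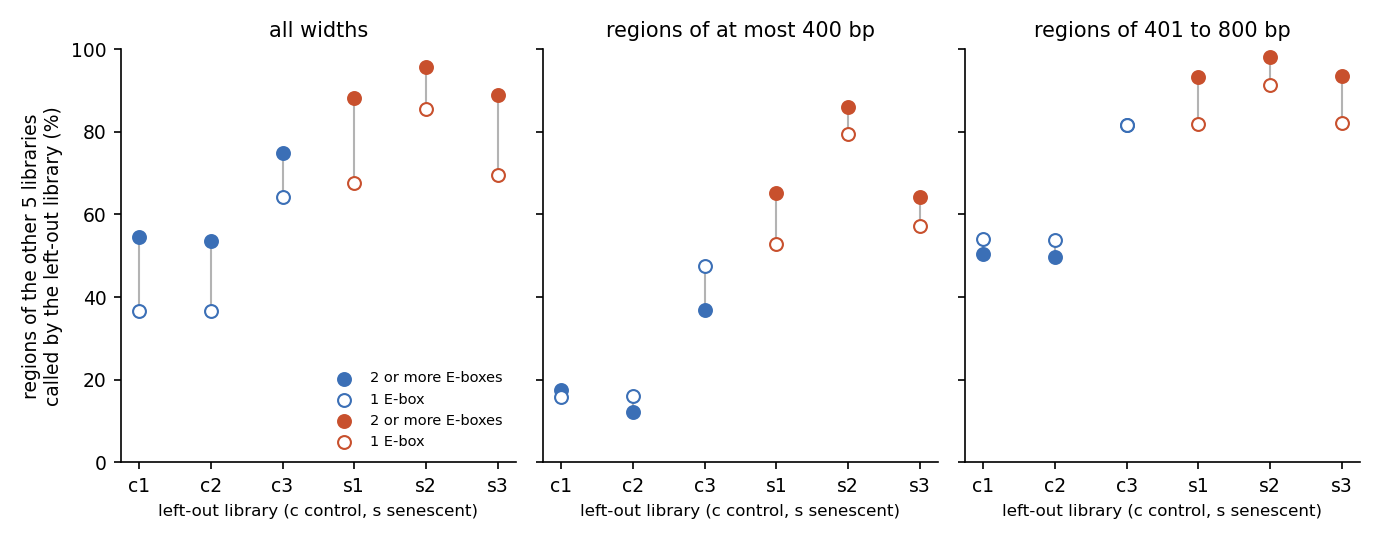
Percent of regions rebuilt from the other 5 libraries that the left-out library called (y axis), for each left-out library (x axis), with multi-E-box regions as filled points and single-E-box regions as open points, in control (blue) and senescent (orange) libraries. Over all widths every filled point lies above its open one, with gaps of 9.95 to 20.5 points, and in regions of over 400 and up to 800 bp this holds for the 3 senescent libraries, with gaps of 6.82 to 11.4 points, and for no control library.

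Multi-E-box regions also stood high in the lists. Ranks were put on a common scale as the percent of the list that lies at or above them, so that a low value is a good rank. At held-out regions that the left-out library called, the median rank was 20.3%, 16.2% and 12.6% in control and 16.8%, 7.74% and 14.8% in senescent replicates 1, 2 and 3, against 37.7%, 38.3% and 21.8%, and 36.6%, 19.4% and 31.8% at single-E-box regions. The difference between the sets was -16.2 ± 4.88 points (SD, n = 6), better for multi-E-box regions in 6 of 6 libraries (exact sign-flip permutation test, p = 0.031, the smallest possible, adjusted p = 0.0625). In regions of at most 400 bp it was -3.02 ± 8.94 points, and in regions of over 400 and up to 800 bp -3.18 ± 3.99 points (SD, n = 6; exact sign-flip permutation tests, p = 0.46875 and p = 0.125). The median rank differed little between the groups, by -3.25 points in senescent against control libraries, which was within the spread of replicates (exact permutation test, p = 0.5, n = 3 per group). Each median leaves out the regions that its library did not call, a larger part in control libraries. The medians of the groups thus cover different regions and do not compare ranks region by region. Of the 50 best peaks of a library, between 19 and 25 lay in multi-E-box regions in each of the 6 lists. Of the 500 best, 110, 112 and 107 did so in control and at least 142 in every senescent library.

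Within the 193 members called in all 6 libraries, ranks of control and senescent libraries separated in both directions. Every senescent rank was better than every control rank in 64 (33.2%), against 17.6% of all 1106 regions called in all 6 libraries. Every control rank was better in 19 (9.84%), against 18.4% of all. Single-E-box regions gave 13.4% and 17.6%, regions with an AP-1 site 23.9% and 17.4%, and regions without either motif 8.16% and 24.8%. Ranks depend on the length of the list, so the count was also taken with ranks as a percent of the list, a scale added after the data were seen. On that scale every senescent rank was better in 40 (20.7%), against 12.9% of all, and every control rank in 5 (2.59%), against 4.7% of all. The first direction held on both scales in 32 members and the second in 5. Single-E-box regions gave 11.3% and 5.07% as a percent of the list, regions with an AP-1 site 16.6% and 4.05%, and regions without either motif 7.25% and 6.04%. A rank is relative to the other peaks of its list, so a better rank does not show more binding, and these counts carry no test because the groups of regions were chosen by calls of the same peaks.

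**Figure D3:**
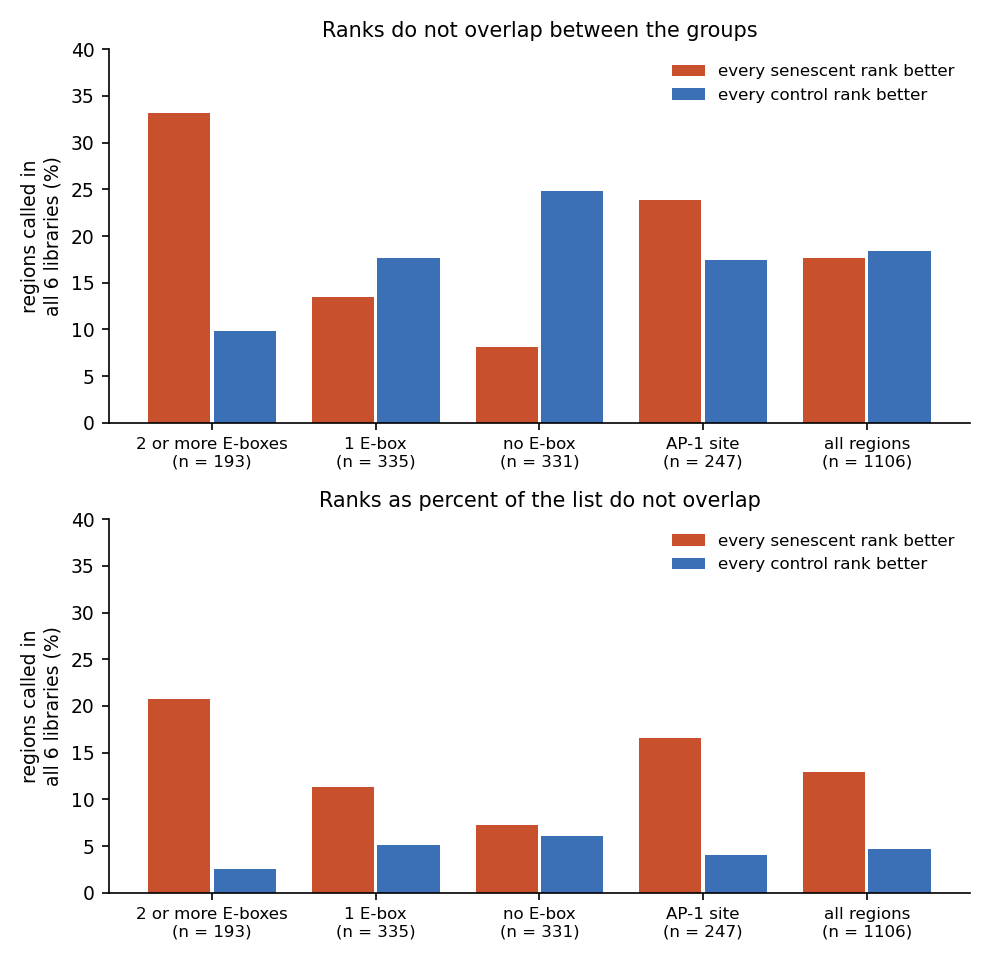
Percent of the regions called in all 6 libraries (y axis, bars from 0) in which every senescent rank was better than every control rank (orange) or the reverse (blue), by sequence class (x axis, with the number of regions), for ranks (top) and ranks as a percent of the list (bottom). Multi-E-box regions show the widest gap towards senescent libraries on both scales, 33.2% against 9.84% and 20.7% against 2.59%, while regions without E-box or AP-1 site show the opposite only for ranks, 8.16% against 24.8%, and not as a percent of the list, 7.25% against 6.04%.

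The best ranks of both groups were at clock genes. Ciart, which encodes a repressor of CLOCK:BMAL1, ranked 1, 2 and 2 in control and 1, 1 and 2 in senescent replicates 1, 2 and 3. Per1, a Period repressor with 5 E-boxes in its region, ranked 2, 1 and 1 and then 2, 2 and 1. The Per1 region was 6312 bp wide, and its E-boxes lay 1011 to 2705 bp from the centre of the best peak. Among the PAR bZIP activators, which carry the rhythm to output genes, Dbp ranked 4, 4 and 6 in control and 5, 4 and 5 in senescent libraries. Tef ranked 5 in each control library and 6, 6 and 8 in senescent libraries. These ranks differed by a few places at most. The REV-ERB gene Nr1d2, a repressor of Bmal1 transcription, ranked 6, 6 and 10 in control and 3, 5 and 3 in senescent libraries. Hlf, the third PAR bZIP gene, ranked 27, 28 and 38 and then 12, 18 and 13, with every senescent rank ahead. Its region lay 27437 bp upstream of the start site, in intergenic sequence. Bhlhe41, the repressor DEC2, ranked 430.5, 582 and 882 in control and 179, 233 and 199 in senescent libraries (tied scores share a mean rank).

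Klf9 went the other way. It encodes a Krüppel-like factor that glucocorticoids induce, and its region (chr19:23135280-23136214), 5382 bp upstream of the start site, ranked 96, 108 and 98.5 in control but 859, 759 and 606.5 in senescent replicates 1, 2 and 3. The groups were far apart. Only the region nearest to Asb13 (chr13:3714854-3716041), singled out after its values were seen, had a wider gap towards control, by the ratio of the nearest ranks of the groups, at 11, 15 and 16 against 636, 353 and 257.5. Its 2 E-boxes lay 22 bp apart in intergenic sequence. In the senescent direction the widest gap was at the E-box array nearest to Ndufaf8, with ranks of 797, 1103.5 and 4715.5 in control and 92, 76 and 87.5 in senescent libraries. Foxred2, also singled out after its values were seen, had 3 E-boxes in a region centred 87 bp upstream of its start site and ranked 865.5, 1096.5 and 876.5 against 97, 96 and 186. Ncl, which encodes nucleolin, ranked 259, 138 and 143.5 against 34, 41 and 34.

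**Figure D4:**
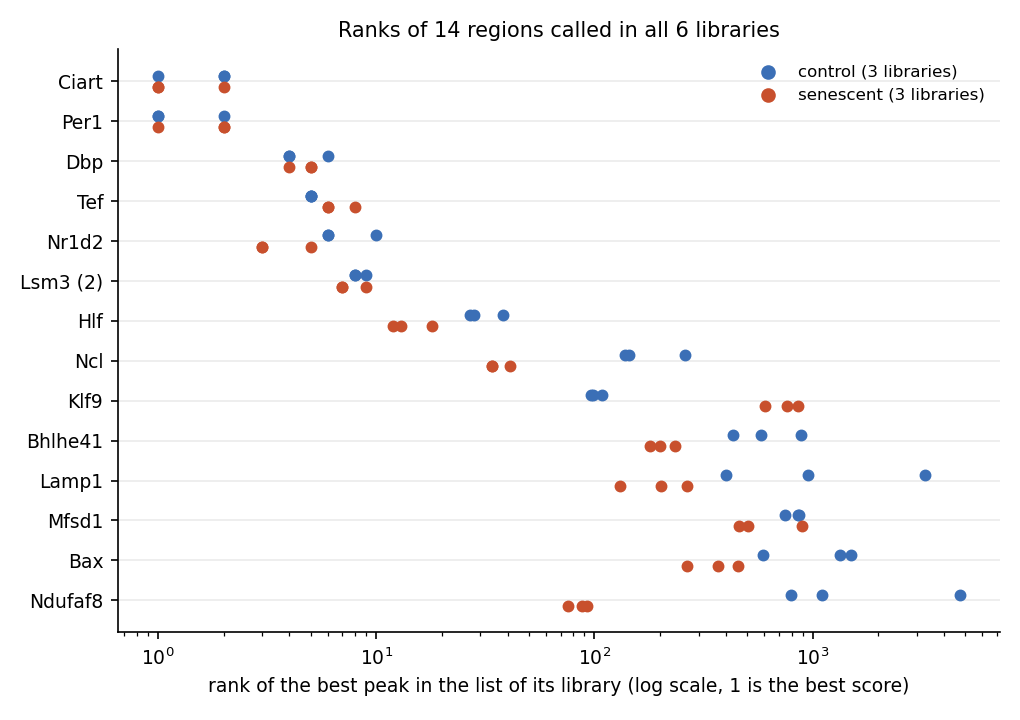
Rank of the best peak (x axis, log scale, 1 is the best score) in each of 3 control (blue) and 3 senescent (orange) libraries at 14 named multi-E-box regions called in all 6 libraries. Ciart and Per1 hold ranks 1 and 2 in every library, the points of Klf9 lie near 100 in control and above 600 in senescent libraries, and those of Hlf, Ncl, Bhlhe41, Lamp1, Bax and Ndufaf8 lie at better ranks in all senescent libraries, as they do with ranks as a percent of the list.

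The number of E-boxes per region was 2 in 352 members, 3 in 65, 4 in 16, 5 in 4 and 6, 7 and 18 in 1 each, 1014 in all. Members called in all 6 libraries made up 38.4% of those with 2 E-boxes, 61.5% of those with 3 and 78.3% of the 23 with 4 or more. Median width rose alongside, from 572.5 to 729 and 887 bp. Lamp1, which encodes a major protein of the lysosomal membrane, had 6 with spacers of 10, 11, 7, 69 and 21 bp. It ranked 401.5, 949.5 and 3279.5 in control and 131, 266 and 202 in senescent libraries. The 5 E-boxes of Mfsd1, a gene of the major facilitator superfamily, fell within 74 bp around its start site, and control and senescent ranks overlapped (747 to 865.5 and 457.5 to 894). Among the 7 members with 5 or more E-boxes, Efna3, an ephrin gene, was the only one that no control library called.

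Neighbouring E-boxes in members lay close together. The 574 spacers between them had a median of 55.5 bp (quartiles 22 and 145.25), against 5928 bp over all 267798 neighbouring pairs of the genome, a gap that the rule itself sets. Pairs with spacers no longer than the DNA on a nucleosome were therefore compared as shares, 434 pairs in members and 10399 in the genome. A tandem spacer of 6 or 7 bp took 4.38% of these pairs in members and 3.70% in the genome, or 3.23% and 2.76% outside repeats. Spacers of up to 20 bp took 30.9% and 31.04%, or 29.6% and 26.9% outside repeats. Those of 21 to 50 bp took 32.0% and 26.3%, or 33.3% and 28.4% outside repeats. The wider spacers among these pairs took 37.1% and 42.6%, or 37.1% and 44.7% outside repeats. The most frequent single spacers in members were 10 bp (14 pairs), 6 bp (13), and 8 and 22 bp (12 each). Members thus held a larger share of spacers of 21 to 50 bp than the genome and a smaller share of wider ones, with repeats and without. These differences carry no test because pairs of a region are not independent.

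**Figure D5:**
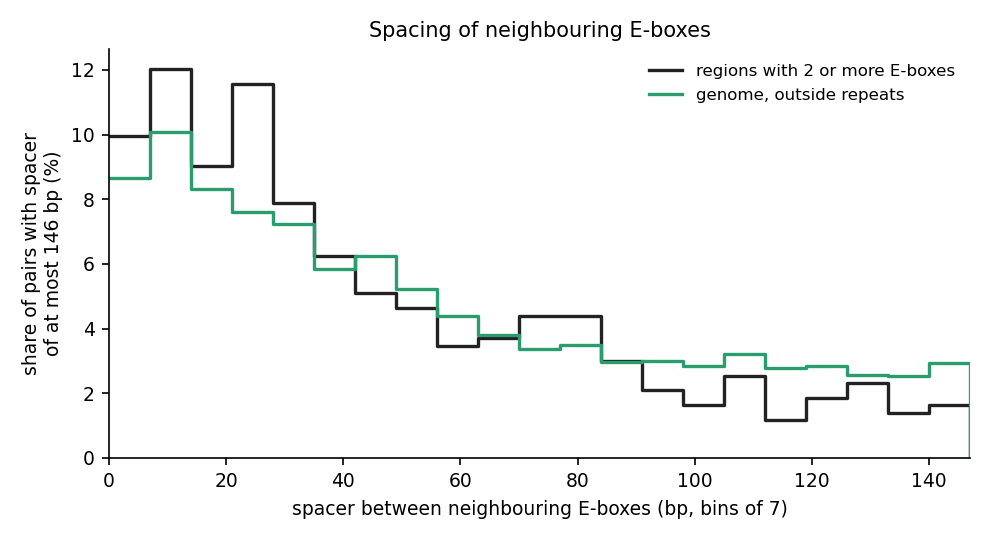
Share of neighbouring E-box pairs (y axis) by spacer (x axis, bins of 7 bp, up to about the length of DNA on a nucleosome) in multi-E-box regions (black) and in the genome outside repeats (green). Pairs in repeats are kept for multi-E-box regions, so the curves are not filtered alike. Members lie above the genome most in the bin that starts at 21 bp.

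Tandem pairs were few. They occurred in 19 members (4.32%), 13 with 6 bp and 6 with 7 bp between the hexamers, and 6 of the 19 pairs touched an annotated repeat. For scale, 5 of 32851 promoters of 300 bases (0.0152%) in RefSeq held such a pair, and 195 (0.594%) held 2 or more E-boxes at any spacing. The 5 were among these 195, which are the nearer scale, since the rule requires 2 or more E-boxes of a member. Most members were also wider than these promoters, so the shares are not alike. All 6 libraries called 12 of the 19, which were nearest to Lsm3, Gm42791, Hlf, Klhl29, Actbl2, Kifc3, Tulp4, Zfp608, Btbd9, Lyplal1, Lamp1 and Taf1c. The region nearest to Lsm3, 83176 bp from its start site, held ranks 7 to 9 in every library. The next was Gm42791, at ranks 18 to 24. Senescent-only calls were made at 6 (31.6%), nearest to Cdk6, Ripk2, Acbd6, Tmcc3, Gm26897 and B4galnt2, and control-only calls at 0. The senescent-only and control-only shares were 21.8% and 1.36% of all members, and 21.3% and 13.2% of all regions. Trim69 had 2 control and 3 senescent calls. The pairs that touched a repeat were those at Cdk6, Ripk2, Acbd6, Actbl2, Zfp608 and Trim69. Of the senescent-only tandem regions, those at Ripk2 and Gm26897 were called in 2 libraries only. The median rank of tandem regions, averaged over the libraries that called each, was 8.19% of the list against 28.3% for all members, and their median width was 872 bp.

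Some E-boxes had a near match beside them. A hexamer with 1 mismatch to the E-box at a spacer of 6 bp was found at 2.37% of E-boxes in members, at 3.67% of those in single-E-box regions and at 1.61% of those in the genome. At 7 bp the shares were 1.58%, 2.15% and 0.603%. Such a partner at 6 or 7 bp was present in 37 members (8.41%) and in 88 single-E-box regions (5.57%). Beyond the regions, 880 windows as wide as the members were placed 2000 bp to each side, and 9.32% held an E-box, 0.795% held 2 or more and 1 held a tandem pair.

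The bases next to the E-box differed from the genome. Over the 10 octamers with the hexamer at their centre, counted on both strands, CCACGTGA was the most frequent in members (18.8% of E-boxes) and in the genome (15.5%). TCACGTGA, singled out after its values were seen, took 9.96% in members, 5.51% in single-E-box regions and 5.22% in the genome. This octamer is the core of the CLEAR element of lysosomal genes, which the TFEB family binds. It was found in 69 of 260 members at promoters (26.5%) and 11 of 180 elsewhere (6.11%), and in single-E-box regions in 8.95% at promoters and 2.58% elsewhere. Because a member holds more E-boxes, it has more chances to hold the octamer. At promoters 14.8% of the E-boxes of members were of this form.

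The octamer was present more than 1 time in 18 members. Rad9a and Mfsd1 held 3 copies each. Among the others were Lamp1, Vps33a, a gene of lysosome tethering, Vps26a of the retromer, and Picalm, a clathrin adaptor. Bax, a pro-apoptotic gene and p53 target, held 2 and ranked 1505, 589.5 and 1337 in control and 455, 367 and 266 in senescent libraries, with no overlap. Vps26a overlapped between the groups, at 483.5, 561.5 and 321 against 600, 467 and 260.5. Picalm was called in 0 control libraries and ranked 1394.5, 3162.5 and 2044 in senescent libraries. Control-only members held the octamer in 0 of 6 regions.

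By gene list, multi-E-box regions were nearest to all 4 genes of the PAR bZIP factors and Nfil3, their repressor (Dbp, Tef, Hlf and Nfil3), to 3 of 8 clock repressors (Per1, Ciart and Bhlhe41) and, among the REV-ERB and ROR receptors, to Nr1d2. Of all 21864 protein-coding genes, 435 (1.99%) had 1. Clock activators and genes of clock protein turnover had 0 of 9, and AP-1 subunits 0 of 10, although 8 of the AP-1 genes were nearest to a region of some class. Among E-box binding factors, Max and Mga, which form dimers on E-boxes, were 2 of 21. Bax was 1 of 20 CDK inhibitors and p53 pathway genes, and Sirt1, an NAD-dependent deacetylase, was 1 of 14 NAD salvage and sirtuin genes. Glucocorticoid-induced genes had 3 of 16 (Klf9, Mt1 and Per1).

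Members of these lists differed in their calls. Nfil3 was senescent-only, at ranks 1427, 1903.5 and 1239, with its 2 E-boxes 9 bp apart and 6198 bp downstream of the start site in an intron. Sirt1 and Mt1, a metallothionein, were called in control replicate 3 and in all 3 senescent libraries. Max ranked 847.5, 1096.5 and 785.5 against 752.5, 418 and 576.5, and Mga 2761, 1690 and 2082 against 728.5, 424 and 1267. As a percent of the list, the ranks of both genes overlapped between the groups.

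The 8 best-ranked senescent-only members, each called in all 3 senescent libraries, were weaker than the clock regions. Efna3 came first, at ranks 137, 532 and 286.5. Ccnd2, which encodes cyclin D2, followed at 518, 373.5 and 372.5, with its region (chr6:127153431-127154012) 2671 bp upstream of the start site and its E-boxes 92 bp apart. Cxcl1, a neutrophil chemokine secreted by senescent cells, had a region centred 248 bp upstream of its start site (chr5:90890727-90891298) at ranks 885.5, 892 and 819.5. Hoxc13, a homeobox gene, had E-boxes 13 bp apart in a region centred 244 bp upstream, at ranks 1123, 593.5 and 632.5. The others were nearest to Wfikkn2, Wdr11, Arhgef28 and Galnt2, between 10217 and 187050 bp downstream of the start site, at ranks from 321.5 to 1092. None of these 8 held a tandem pair.

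All 6 control-only members are named here. Ppp1r1b, which encodes the phosphatase inhibitor DARPP-32, had the best ranks, 550.5, 733.5 and 406, in a region 662 bp upstream of its start site (chr11:98347480-98348025). Gmds, an enzyme of fucose synthesis, ranked 1039, 804.5 and 6331.5, and Fa2h, a fatty acid hydroxylase, 769, 2833.5 and 4825.5. Tab2, an adaptor of the kinase TAK1, ranked 2761 of 2794, 2762 of 3349 and 10580 of 10601 peaks in control replicates 1, 2 and 3. Natd1 and Kdm5b, a histone H3K4 demethylase, were called in 2 control libraries. Smallest spacers of the 6 ran from 37 bp at Tab2 to 249 bp at Natd1.

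Members lay at promoters more often than single-E-box regions did. The best peak was centred within 1000 bp of a start site in 260 members (59.1%), against 45.98% of single-E-box regions and 39.5% of all regions. By annotation the centre was intergenic in 237, in an intron in 135, in an untranslated exon in 55 and in a coding exon in 13. Of 603 E-boxes in promoter members, 45.8% lay within 250 bp upstream of the start site and 18.9% within 250 bp downstream, against 49.4% and 19.3% in promoter single-E-box regions. Promoter members were senescent-only in 38 cases (14.6%) and control-only in 1 (0.385%), and the other 180 members in 58 (32.2%) and 5 (2.78%). Single-E-box regions were senescent-only in 24.0% and control-only in 0.551% at promoters, and in 31.3% and 10.6% elsewhere. Of the 193 members called in all 6 libraries, 121 were at promoters.

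Most peaks were centred close to an E-box. The nearest E-box lay a median of 37 bp from the centre of the best peak in members and 51 bp in single-E-box regions, and within 50 bp in 58.9% and 49.5%. It lay more than 200 bp away in 23 members, Per1 and Dbp among them. In 201 of 440 members the centre fell between the first and last E-box. Peaks of single libraries were narrower than the merged region, and 2 or more E-boxes lay under the library's own peak in 75.9%, 71.3% and 77.7% of the members that control replicates 1, 2 and 3 called, and in 89.0%, 89.8% and 88.1% in senescent replicates 1, 2 and 3. Median peak width at members was 313, 360 and 421 bp in control and 447.5, 490 and 431 bp in senescent libraries.

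Members just inside and just outside the thresholds are given as a description. Of the 440, 54 were called in exactly 2 libraries, with a median rank at 50.1% of the list, and 46 of these were senescent-only and 2 control-only. Among all regions called in exactly 2 libraries, 960 were senescent-only, 721 control-only and 1272 had 1 call in each group. Among single-E-box regions the counts were 234, 60 and 127. A further 43 regions with 2 or more E-boxes and no AP-1 site were called in 1 library, 5 in control and 38 in senescent libraries, at a median of 60.3%. Another 85 regions held 2 or more E-boxes and an AP-1 site. Of these, 47 (55.3%) were called in all 6 libraries, 20 (23.5%) were senescent-only and 2 (2.35%) control-only.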

How the data were processed

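Peak lists of 3 control and 3 senescent BMAL1-ChIP-seq libraries were used, and 6 input libraries were not analysed here. The authors mapped reads to mm10 with BWA, marked duplicates with Picard and called peaks for each library with MACS2 in the HiChIP pipeline at an FDR of 1%. The score they deposited was read as −log10 of the q-value, inferred from the smallest score of each list (2.02 to 2.12), and served for ranks within a list only. Labels and methods name different suppliers for the BMAL1 antibody. The lists carry no depth, and 32 peaks on the mitochondrial genome were not searched for motifs.

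Peaks were merged at 1 bp of overlap, and exact motif letters were counted on both strands of GRCm38 between region start and end (Python 3.11.15, numpy 2.4.6). Start sites and exons were those of protein-coding genes in GENCODE M21, and promoter sequences came from RefSeq (GRCm38.p6). Merging, motif counts, spacers and the held-out test were tested on simulated data. Shares have Wilson intervals, and the 4 held-out tests were exact permutation tests with Benjamini-Hochberg adjustment. Genes were named by rule: every tandem pair, the 12 best-ranked regions called in all 6 libraries, the 8 with most E-boxes (ties taken by mean rank percent), every region of a listed gene, and the 8 best senescent-only and 8 best control-only regions, of which there were 6. A few regions that the rule names are not reported here. The members, lists and tests were chosen with earlier results of these data known.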

Additional observations from a re-analysis of the deposited data

Results flagged for a closer look

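In held-out regions of over 400 and up to 800 bp, the contrast of multi-E-box with single-E-box regions ran in opposite directions in the groups, in all libraries of each. The share called at multi-E-box minus that at single-E-box regions was between -4.15 and -0.0427 percentage points in the 3 control libraries and between 6.82 and 11.4 points in the 3 senescent libraries. The contrast differed between the groups by 12.4 points (exact permutation over 20 arrangements, two-sided, p = 0.1, which is the lowest that n = 3 per group allows). In regions of at most 400 bp the difference was 12.9 points (exact permutation test, p = 0.1, n = 3 per group), with 1 control library above 0, and over all widths it was 1.47 points (exact permutation test, p = 0.6, n = 3 per group). The width classes were chosen after the data were seen, and the cause was not tested.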

How the results depend on the processing

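The difference in the held-out share between senescent and control libraries stayed between 24.8 and 49.6 percentage points over its 16 alternatives, with the highest value in regions of at most 400 bp and a range of 24.8 to 37.5 when a library was left out, and the contrast of multi-E-box with single-E-box regions kept its direction in all 15 of its own, though the width classes lowered it to 2.16 and 3.6 points. No adjusted p could pass 0.05 in any setting, since the smallest that these tests allow is 0.0625. The number of senescent-only members rested on single libraries, from 53 without senescent replicate 2 to 162 without control replicate 3, and was 50 when 3 libraries were required, by construction. With regions of at most 1000 bp, 123 members were called in all 6 libraries and 12 held a tandem pair. Leaving out a library moved the held-out differences between 13.1 and 16.5 points for the share contrast and between -16.0 and -14.9 for the rank contrast. Calls of control and senescent libraries of the same replicate number had correlations of -0.0185, -0.0302 and -0.0442 over the 440 members. Members were chosen by these calls, so the values cannot settle whether replicate numbers pair the libraries. With the replicate block the difference between groups was 29.9 points (exact permutation test, p = 0.25, the smallest possible with n = 3 pairs) for the share and -3.25 for the median rank (exact permutation test, p = 0.5, n = 3 pairs). Control-only members numbered 4 to 8 in all alternatives. With ranks as a percent of the list, a scale added after the data were seen, members with every senescent rank better numbered 40 in place of 64, and those with every control rank better 5 in place of 19. Without reads, depth could not be set against any of these values.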

Other observations

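Other motifs were counted in the same regions as a description. Per kb of sequence, the CACGCG hexamer was found 0.694 times in multi-E-box regions, 0.619 times in single-E-box regions and 0.0678 times in the flanking windows, and the variant E-box CACGTT 0.274, 0.309 and 0.139 times. The Sp/KLF hexamer GGGCGG, common at CpG-rich promoters, was found in 60.5% of multi-E-box and 45.9% of single-E-box regions, and the CCAAT box in 53.6% and 46.04%. A rearranged E-box of the same bases, ACCGGT, was found in 5.68% and 4.56%. The shares per region grow with region width, and the counts per kb do not.

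Genes with more than 1 multi-E-box region were Foxo3, Gm26897, Lsm3, Mafk and Olfr1423, with 2 each. Foxo3, a forkhead factor of stress responses, had a region centred 1124 bp upstream of its start site that ranked 107, 104 and 73 in control and 134, 143 and 129 in senescent replicates 1, 2 and 3, and a senescent-only region centred 2594 bp downstream at ranks 2417, 2005 and 1986.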
